A study of Mus musculus with 4 samples.

Results

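Transcripts of 10 genes that carry the signal from Toll-like receptors (TLRs) and interleukin-1 receptors into the cell were followed in bone marrow-derived macrophages. These were the adaptors Myd88, Tirap, Ticam1 and Ticam2, the kinases Irak4, Irak1 and Irak2, the inhibitory members Irak3 and Tollip, and Map3k7, the kinase TAK1. They were chosen by symbol, for their place between these receptors and NF-κB, and all 10 were found among the 21878 genes listed and passed the filter on low counts. The data are 4 RNA sequencing libraries. Of these, 2 came from macrophages of wild type mice (labelled WT) and 2 from macrophages of anti-Act1 mice, in which the study knocked down Act1 in macrophages. The promoter that drives the knockdown is not given in the sources used here. Act1 is the adaptor of the interleukin-17 receptor and is encoded by Traf3ip2. All mice were C57BL/6 and 8 weeks old by the labels. The macrophages of both groups had been grown from marrow with M-CSF and shared culture medium with MC38 mouse colon cancer cells across a porous insert, for 48 h by the labels, although a figure legend of the study gives a shorter time. There was no group without MC38 cells, so the values show macrophages under coculture only.

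When a TLR or interleukin-1 receptor binds its ligand, its TIR domain gathers MyD88, at TLR2 and TLR4 with the help of the bridging adaptor TIRAP. MyD88 then assembles with IRAK4 and with IRAK1 or IRAK2 into a complex called the Myddosome, and from there TRAF6 and TAK1 pass the signal to NF-κB and the MAP kinases. IRAK3, also named IRAK-M, is found mainly in macrophages and monocytes and restrains this complex, as does TOLLIP. TLR3, and TLR4 with the bridging adaptor TRAM (Ticam2), use TRIF (Ticam1) in place of MyD88 and lead to interferon β. In macrophages these routes set the output of inflammatory cytokines, and a rise of IRAK3 is a known feature of endotoxin tolerance.

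Each library held 55435063 to 75062945 counts, and both WT libraries were larger than both anti-Act1 libraries. Traf3ip2 was at 6.98 and 7.54 CPM (counts relative to the TMM-scaled library size) in WT and at 9.63 and 7.84 CPM in anti-Act1. The log2 difference was 0.27 (SE 0.12), with an adjusted p of 0.117 by edgeR, so Traf3ip2 was not lower in the anti-Act1 libraries. In a separate measurement, the study reports reduced Act1 expression in bone marrow-derived macrophages of anti-Act1 mice. The Traf3ip2 counts here do not show that reduction, and every direction below rests on the labels. The Y-linked genes Ddx3y, Eif2s3y, Uty and Kdm5d had 2248 to 7360 counts in the WT libraries and at most 1 in the anti-Act1 libraries. The groups thus differed in Y-linked transcripts, and for no gene below can a difference of sex and the label be told apart. Summed over 10 macrophage markers the libraries held 25811 to 27219 CPM, of which Lyz2 alone gave 15811 to 17737. Of these markers, 1 was higher and 4 were lower in the anti-Act1 libraries. Cd14 was at 1.12-fold, and Itgam, Mertk, C1qb and C1qa were at 0.807-fold, 0.759-fold, 0.757-fold and 0.725-fold. The part of these markers in the results below was not tested. Summed over 10 markers of epithelial tumour cells the libraries held 0.330 to 0.898 CPM, and Krt8, Krt18, Krt20, Cldn3 and Cldn4 had 0 counts in every library. Marker lists of 7 other cell types reached at most 31.0 CPM, in the T cell list, where Cd4 had means of 25.2 and 29.1 CPM in the WT and anti-Act1 libraries and was called higher. Of 6 neutrophil markers tested, 1 was higher and 3 were lower, at summed levels of 6.57 to 7.47 CPM, and the other lists had no called marker. In bulk RNA, a change in the share of cells that make a transcript and a change per cell cannot be told apart.

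Of the 10 genes, 4 were higher and 1 was lower in the anti-Act1 libraries, at an adjusted p under 0.05 in edgeR's quasi-likelihood test. Irak3, Ticam2, Irak2 and Tollip were the higher ones, by 1.13-fold to 1.36-fold, and Irak4 was the lower one, at 0.863-fold. Across all 12494 genes tested, 20.7% passed this threshold, 10.9% as higher and 9.76% as lower. The median log2 fold change was 0.06 over the 10 genes and −0.0046 over all genes tested. For each of these 10 genes the 95% interval lay within a fold of 1.5 in either direction. Without anti-Act1 replicate 2, 3 of the 10 genes passed the threshold and their median was 0.02, and without anti-Act1 replicate 1 the median was 0.10. Without composition normalization, 1105 of all genes were called higher and 1411 lower, against 1366 and 1220, while the members' calls stayed at 4 and 1. Nothing in the labels says whether the 2 libraries of a group came from separate mice, although the study calls them biological replicates, so p-values measure only the spread between these samples. With 2 libraries against 2, exact permutation of one gene's values cannot give less than p = 0.333, and the p-values given come from the model across genes.

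Upstream sequences are shown for the clearest movers of the kinase family, and for Myd88 and Map3k7, whose windows hold a motif of NF-κB or of interferon signalling. Each is the 250 bases before an annotated start, 5′ to 3′ on the gene's strand, from RefSeq (GRCm38.p6). Capitals mark matches on either strand to the motifs described after them. Irak3 has annotated starts in 2 places, and both windows are given.
Irak3, chr10:120201598-120201847, minus strand: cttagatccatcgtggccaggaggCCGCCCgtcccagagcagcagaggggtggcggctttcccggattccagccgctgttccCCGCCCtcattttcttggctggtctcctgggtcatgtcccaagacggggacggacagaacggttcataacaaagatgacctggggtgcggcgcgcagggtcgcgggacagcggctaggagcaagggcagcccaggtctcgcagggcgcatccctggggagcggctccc
Irak3, chr10:120202131-120202380, minus strand: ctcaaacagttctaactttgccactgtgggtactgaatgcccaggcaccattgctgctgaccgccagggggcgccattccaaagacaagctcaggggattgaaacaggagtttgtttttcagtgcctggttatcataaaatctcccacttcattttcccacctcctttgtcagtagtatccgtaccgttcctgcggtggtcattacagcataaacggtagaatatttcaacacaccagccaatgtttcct
Irak2, chr6:113638217-113638466, plus strand: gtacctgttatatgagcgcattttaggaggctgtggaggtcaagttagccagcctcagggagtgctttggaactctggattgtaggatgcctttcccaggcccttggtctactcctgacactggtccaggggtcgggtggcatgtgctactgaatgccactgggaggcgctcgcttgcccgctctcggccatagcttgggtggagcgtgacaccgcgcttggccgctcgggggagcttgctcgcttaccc
Irak4, chr15:94543410-94543659, plus strand: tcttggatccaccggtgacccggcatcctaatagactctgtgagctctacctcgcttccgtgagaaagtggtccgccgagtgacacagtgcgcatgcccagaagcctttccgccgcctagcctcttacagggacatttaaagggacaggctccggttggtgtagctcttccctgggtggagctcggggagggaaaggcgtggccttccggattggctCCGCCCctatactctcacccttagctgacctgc
Myd88, chr9:119340019-119340268, minus strand: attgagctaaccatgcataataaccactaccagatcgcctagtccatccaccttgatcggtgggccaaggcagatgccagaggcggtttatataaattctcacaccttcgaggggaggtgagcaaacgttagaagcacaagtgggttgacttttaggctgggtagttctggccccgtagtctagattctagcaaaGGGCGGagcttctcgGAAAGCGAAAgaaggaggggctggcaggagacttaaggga
Map3k7, chr4:31963857-31964106, plus strand: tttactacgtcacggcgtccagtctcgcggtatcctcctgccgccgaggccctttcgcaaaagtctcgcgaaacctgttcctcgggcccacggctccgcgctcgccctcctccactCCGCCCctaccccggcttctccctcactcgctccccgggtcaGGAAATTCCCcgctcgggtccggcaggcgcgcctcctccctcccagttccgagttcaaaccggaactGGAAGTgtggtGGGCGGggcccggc

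A match of letters is a description of these windows and not evidence of binding. The motifs searched, on both strands, were the NF-κB consensus, the interferon-stimulated response element, the AP-1 site TGANTCA, the ETS core GGAAGT, the E-box CACGTG and the GC box GGGCGG. The windows of Irak2 and of the upstream Irak3 start held none of these. The other Irak3 window held 2 GC boxes, 226 and 168 bases before the start, and that of Irak4 held 1, 33 bases before it. Of all 32841 windows of this length, 32.7% hold a GC box, and of the 12279 windows of tested genes, 55.9% do. Among the members with a window, the NF-κB consensus was found only in Map3k7, 92 bases before the start. It was in 5.0% of all windows and 6.03% of those of tested genes. Among the same members, the interferon element was found only in Myd88, 40 bases before the start. It was in 2.98% of all windows and 2.77% of those of tested genes. Neither Map3k7 nor Myd88 passed the test of a difference between the groups. In all, 9 of the 10 genes have a window here, 12 windows together. Ticam2 has none here, so no motif was searched for it. None of the 12 windows held an AP-1 site, which 6.75% of all windows and 4.66% of those of tested genes do.

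Irak3 showed the largest change of the 10 genes. It was at 56.8 and 55.4 CPM in the WT libraries and at 74.3 and 77.9 CPM in the anti-Act1 libraries, so that the groups stood well apart. The difference was 0.44 on the log2 scale (SE 0.06), with an adjusted p of 4.93e-08 by edgeR. It ranged from 0.40 to 0.48 over 13 alternatives, each of which called it. Irak3 encodes the family member that lacks an active kinase and holds back the Myddosome. It lies on chromosome 10, where its exons overlap those of Tmbim4, a gene read from the opposite strand, over 192 bases or 5.22% of its exon bases in GENCODE M21. Tmbim4 was also higher, with a log2 fold change of 0.32 (SE 0.05). The kit used does not mark strand, so reads in the shared bases cannot be told apart.

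Irak2, the kinase that sustains the later phase of TLR responses together with IRAK4, also rose. Its libraries were at 102 and 106 CPM in WT and at 123 and 125 CPM in anti-Act1, again without overlap. The rise of 0.26 on the log2 scale (SE 0.05) had an adjusted p of 0.00022 by edgeR, and all 13 alternatives called it.

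Irak4, the kinase that starts the cascade at the Myddosome, went the other way. It was at 48.9 and 47.6 CPM in the WT libraries and at 42.4 and 40.9 CPM in the anti-Act1 libraries, and the groups did not overlap. The change was −0.21 on the log2 scale (SE 0.06), at an adjusted p of 0.00994 by edgeR. Leaving out anti-Act1 replicate 1 or 2 ended the call (edgeR adjusted p = 0.0523 and 0.153), and 11 of 13 alternatives kept it. On chromosome 15 exons of Irak4 share 395 bases, 7.87% of its exon bases, with Twf1 on the other strand. Twf1 was lower as well, at −0.20 on the log2 scale (SE 0.05), with an adjusted p of 0.00605, and how far shared reads enter the value of Irak4 was not tested.

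Irak1, the kinase that IRAK4 phosphorylates first, showed no called difference with 2 libraries per group. Its 133 and 136 CPM in WT and 134 and 130 CPM in anti-Act1 overlapped. On the log2 scale they differed by −0.03 (95% interval −0.13 to 0.08), with an adjusted p of 0.788 by edgeR. Irak1 lies on the X chromosome, and the groups differed in Y-linked genes, as given above, so here too sex and the label cannot be told apart. Of 366 X-linked genes tested, 20.8% were called, 28 as higher and 48 as lower, against 20.7% of the genes of other chromosomes. The median log2 fold changes were −0.04 and −0.0038, and an effect of sex was not tested.

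**Figure D1:**
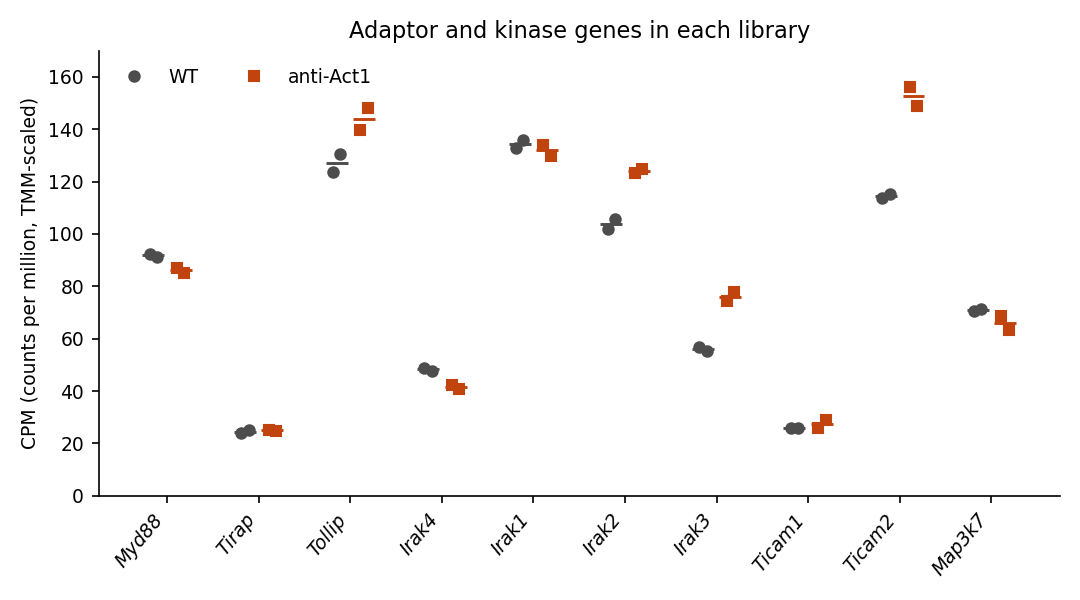
Level of each of the 10 genes in each library, in CPM after TMM scaling (vertical axis, from 0), with WT libraries as grey circles, anti-Act1 libraries as rust squares and a bar at the mean of the 2 libraries. The anti-Act1 libraries sit above the WT libraries for Irak3, Ticam2, Irak2, Tollip and Ticam1, below them for Irak4, Myd88 and Map3k7, and among them for Irak1 and Tirap.

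Myd88, the adaptor shared by nearly all TLRs and by the interleukin-1 receptor family, was at 92.5 and 91.3 CPM in the WT libraries and at 87.2 and 85.0 CPM in the anti-Act1 libraries. The groups did not overlap, but the difference did not pass the test across genes. It was −0.09 on the log2 scale (95% interval −0.20 to 0.02) at an adjusted p of 0.248 by edgeR, and none of 13 alternatives called it. Myd88 shares 290 exon bases with Acaa1a on the other strand, 11.3% of its own. The Acaa1a difference was 0.14 on the log2 scale (SE 0.06), with an adjusted p of 0.0798.

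Tirap, which brings MyD88 to the membrane, had 24.1 and 25.0 CPM in WT and 25.0 and 24.9 CPM in anti-Act1. The groups overlapped. Their log2 difference of 0.02 (95% interval −0.12 to 0.17) had an adjusted p of 0.862 by edgeR, and its sign turned in 5 of 13 alternatives. Tirap shares 39 exon bases, 0.791% of its own, with Srpr on the other strand, which was higher by 0.21 on the log2 scale (SE 0.05) at an adjusted p of 0.00289.

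Tollip, which binds IRAK1 and interleukin-1 receptors and dampens their signal, was at 124 and 131 CPM in WT and at 140 and 148 CPM in anti-Act1. This was a rise of 0.18 on the log2 scale (SE 0.05), with an adjusted p of 0.0110 by edgeR. This is the least secure of the calls, since 5 of 13 alternatives lost it. Its adjusted p became 0.0882 when WT replicate 1 was left out, 0.238 when anti-Act1 replicate 2 was left out, and 0.0707, 0.0711 and 0.135 in the limma settings.

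On the TRIF side the bridging adaptor changed and TRIF itself did not pass the test. Ticam2, the gene of TRAM, was at 114 and 115 CPM in the WT libraries and at 156 and 149 CPM in the anti-Act1 libraries, with a wide gap between the groups. The rise was 0.41 on the log2 scale (SE 0.05) at an adjusted p of 2.11e-08 by edgeR, and all 13 alternatives called it, with values of 0.38 to 0.45. Ticam2 shares 838 exon bases, 14.5% of its own, with Tmed7 on the same strand, a gene of vesicle transport. The list of other adaptors and brakes of TIR signalling below also counts Tmed7. Tmed7 was at 221 and 234 CPM in WT and at 251 and 229 CPM in anti-Act1, and it differed by 0.08 on the log2 scale (SE 0.05), with an adjusted p of 0.349 by edgeR. How the authors' counting treated reads in the shared bases is not stated, so both values carry that uncertainty.

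Ticam1, the gene of TRIF, was at 25.7 and 25.9 CPM in WT and at 25.9 and 28.9 CPM in anti-Act1. The log2 difference of 0.09 (95% interval −0.06 to 0.24) had an adjusted p of 0.448 by edgeR, and 1 anti-Act1 library alone lay clearly above the rest.

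Map3k7, where the routes from the receptors meet, was at 70.5 and 71.3 CPM in WT and at 68.8 and 63.4 CPM in anti-Act1. The groups did not overlap, yet the log2 fold change of −0.10 (95% interval −0.22 to 0.02) had an edgeR adjusted p of 0.242. Its binding partners Tab1, Tab2 and Tab3, named here for that role after their values were seen, had adjusted p-values of 0.257, 0.647 and 0.205. Across the 10 genes, 8 did not overlap between the groups, 5 of them higher and 3 lower in anti-Act1. Of all genes tested, 57.1% did not overlap, 28.4% as higher and 28.7% as lower. The plot of fold changes with their intervals shows that the intervals of 5 genes span 0.

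**Figure D2:**
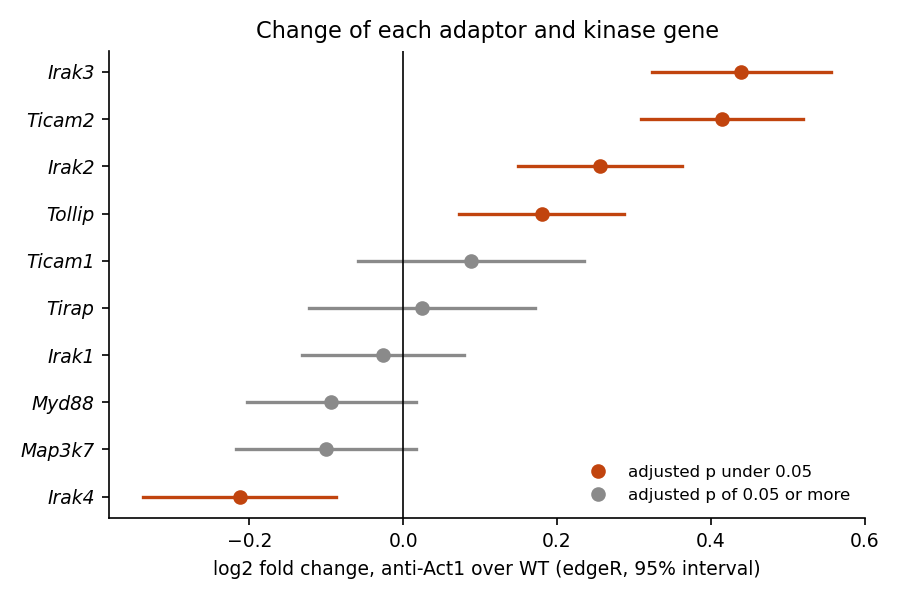
Log2 fold change of each of the 10 genes, anti-Act1 over WT, with the 95% interval of the edgeR model (horizontal axis), in rust where the adjusted p is under 0.05. Irak3 and Ticam2 lie farthest to the right, at 0.44 and 0.41, and Irak4 at −0.21 is the only called gene on the left.

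Levels of different genes were compared per length, in the FPKM values the authors deposited. Averaged over the 4 libraries, Myd88 was the most abundant at 46.7 FPKM, followed by Ticam2 (40.8), Irak1 (40.0), Irak2 (36.8), Tollip (36.1), Irak3 (24.2), Irak4 (22.2), Map3k7 (12.3), Ticam1 (9.40) and Tirap (5.23). Myd88 stood above 87.3% and Tirap above 39.2% of the genes tested. The lower end of the order, from Map3k7 to Ticam1 to Tirap, was the same in every library, without overlap between neighbours. The upper end was not. In the WT libraries Myd88 led, at 48.9 and 48.4 FPKM, above Irak1 at 40.2 and 41.3 and Ticam2 at 35.1 and 35.7. In the anti-Act1 libraries Ticam2, at 47.7 and 45.0 FPKM, and Myd88, at 45.6 and 44.0, overlapped, and so did Irak1 and Irak2, at 40.2 and 38.5 against 39.7 and 39.7. Irak3 and Irak4 changed places in FPKM: Irak3 was the lower of the pair in both WT libraries and the higher in both anti-Act1 libraries. This crossing rests on the gene lengths behind the FPKM, 2730 bases for Irak3 and 2026 for Irak4. In CPM, Irak3 was above Irak4 in all 4 libraries.

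Because both genes of a pair are read in the same library, their ratio needs no scaling between libraries. These ratios restate the changes above and were not tested. The FPKM ratio of Irak3, the brake, to Irak4, the starting kinase, was 0.861 and 0.863 in the WT libraries and 1.30 and 1.41 in the anti-Act1 libraries. On the log2 scale this is a difference of 0.65, against a pooled SD of 0.06 between libraries of a group. Irak2 to Irak1 was 0.825 and 0.836 in WT and 0.988 and 1.03 in anti-Act1, a log2 difference of 0.28 (pooled SD 0.03). Ticam2 to Ticam1 went from 3.84 and 3.86 to 5.21 and 4.47, a log2 difference of 0.33 (pooled SD 0.11), which became 0.22 or 0.44 when anti-Act1 replicate 1 or 2 was left out. Tirap to Myd88 differed least, at 0.105 and 0.110 against 0.116 and 0.118, a log2 difference of 0.12 (pooled SD 0.04).

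**Figure D3:**
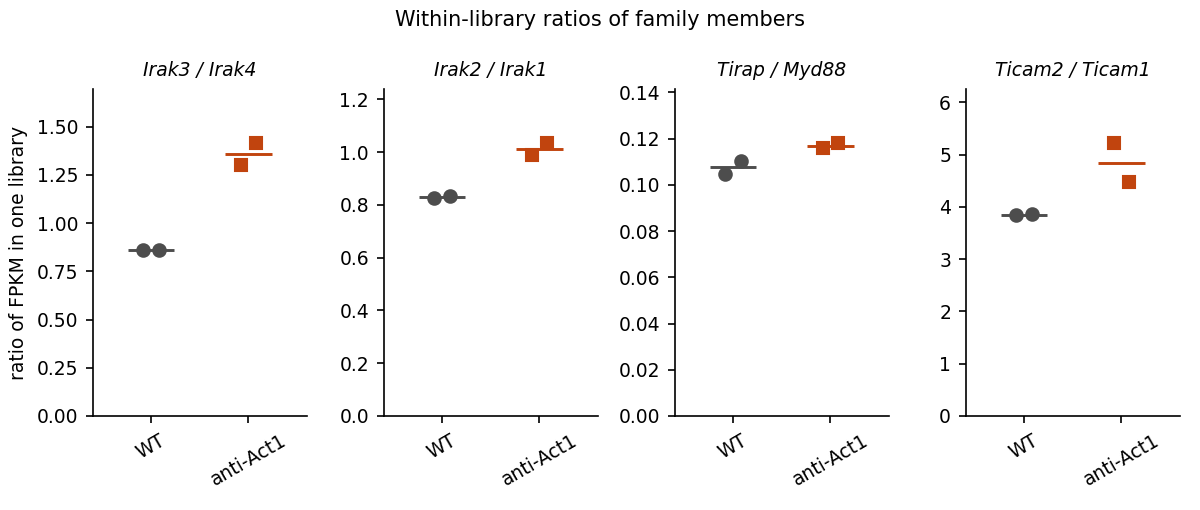
Ratio of FPKM values of 2 genes within each library (vertical axes from 0, a scale for each pair), with WT libraries as circles, anti-Act1 libraries as squares and a bar at the mean. The ratio of Irak3 to Irak4 lies below 1 in both WT libraries (0.861 and 0.863) and above 1 in both anti-Act1 libraries (1.30 and 1.41). On which side of 1 a ratio lies depends on the gene lengths behind the FPKM.

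The genes whose profile over the 4 libraries was most like that of Irak3 were Gadd45a, 3110043O21Rik and Rusc2, among 10891 other genes of at least 1 CPM. Likeness was the Euclidean distance between log2 CPM profiles, each centred on its mean, and these distances were 0.018, 0.028 and 0.033. Gadd45a is a growth arrest and stress response gene. It was at 108 and 104 CPM in WT and at 139 and 146 CPM in anti-Act1. The 3110043O21Rik gene, the mouse counterpart of C9orf72, was at 64.5 and 64.0 against 85.2 and 87.6 CPM, and Rusc2 at 94.7 and 92.6 against 127 and 129 CPM. With 4 libraries such likeness is shared by any gene that rose by a similar factor.

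The rest of the pathway was counted over 5 lists. Beside these counts, 20.7% of all genes tested were called, 10.9% as higher and 9.76% as lower. Among the receptors and co-receptors upstream, 18 of 21 genes were tested, and 3 were higher and 7 lower in the anti-Act1 libraries, with a median log2 fold change of −0.10. The median was −0.17 without WT replicate 1 and −0.18 without anti-Act1 replicate 1. Tlr2, a receptor of bacterial lipoproteins that signals through TIRAP and MyD88, rose from 191 ± 4.48 to 261 ± 4.62 CPM (SD of 2 libraries), by 0.45 on the log2 scale, at an adjusted p of 1.56e-09 by edgeR. Its partner Tlr1 fell by 0.47 on the log2 scale, and the endosomal receptors of nucleic acids Tlr9 and Tlr8 fell by 0.66 and 0.35. Tlr6, another partner of Tlr2, differed by −0.04 (edgeR adjusted p = 0.725). Tlr4, which uses TRAM, had −0.29 (edgeR adjusted p = 4.06e-05). Unfiltered limma on log2(FPKM + 1) called 5 of these receptors.

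Among 28 ubiquitin ligases and kinases downstream, all tested, 5 were higher and 3 lower, with a median of 0.01. Without composition normalization 3 were higher and 3 lower, with a median of −0.01, and without WT replicate 1 the median was −0.0072. Traf6, the ubiquitin ligase that follows the Myddosome and is also used by Act1, was higher by 0.43 on the log2 scale (SE 0.06), at an adjusted p of 3.36e-08 by edgeR, and was called in all 13 alternatives. Traf3, which is used by TRIF and restrains other branches, had 0.29, and Map2k6, a kinase that activates p38, had 0.70 from 4.42 to 7.16 CPM. Ripk1, the kinase that TRIF recruits, had −0.17, a call that ended when anti-Act1 replicate 1 or 2 was left out (edgeR adjusted p = 0.145 and 0.112). The count of 8 called genes was 3 when either anti-Act1 replicate was left out and 5 when WT replicate 2 was, and it was 5 with the replicate number as a block.

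Among 20 other adaptors and brakes of TIR signalling, all tested, 5 were higher and 4 lower, with a median of −0.0087. The sign of this median was not stable, at 0.11 without WT replicate 1, 0.03 without anti-Act1 replicate 2 and −0.04 without either of the others. Without composition normalization 4 were higher and 5 lower. Nfkbia and Tnfaip3, which encode IκBα and the enzyme A20 and end NF-κB signalling, had log2 fold changes of 0.71 and 0.63, and Zc3h12a, whose product degrades inflammatory transcripts, had 0.45. Ly86, which encodes a partner of the receptor homologue CD180, had −0.35.

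Of the cytokines and other outputs, 16 known to depend on MyD88 were tested. Of these, 11 were higher and 0 lower, with a median of 0.96. Without composition normalization, and in both filtered limma settings, 1 was called lower. The 11 include Il6, at only 4 and 2 counts in WT and 17 and 18 in anti-Act1. Saa3, Il1a, Cxcl2 and Cxcl1 had log2 fold changes of 1.18, 1.35, 0.95 and 1.46. The 5 not called were Ccl4 (−0.18), Il12b (−0.62), Il10 (0.18), Lcn2 (0.17) and Ccl3 (−0.02). Of outputs known to depend on TRIF, 13 were tested, and 11 were higher and 0 lower, with a median of 0.52. These 11 include Ifnb1, at only 4 and 0 counts in WT and 10 and 16 in anti-Act1. Acod1, which makes itaconate, Gbp2, Cxcl10 and Rsad2 had 1.28, 0.79, 1.52 and 0.51. The 2 not called were Ccl5 (0.02) and Il27 (−0.08). Many of these outputs are also induced by interferons or tumour necrosis factor, and none was measured under the loss of an adaptor here. The lists were written with earlier results of these data known, so their counts are a description.

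**Figure D4:**
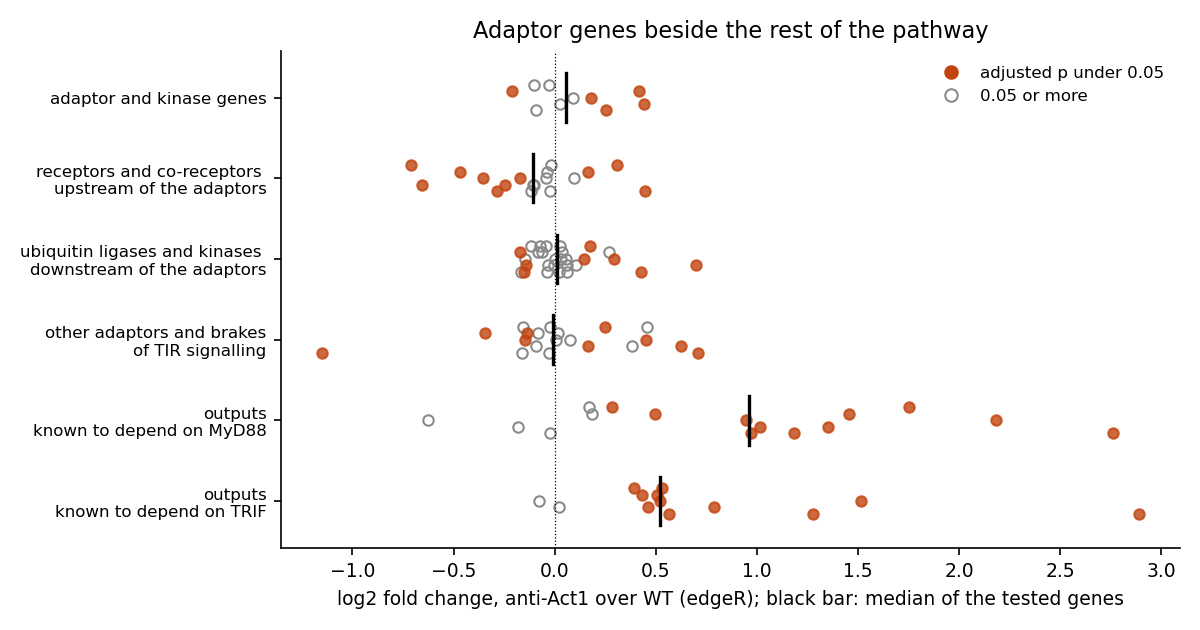
Log2 fold change (anti-Act1 over WT, horizontal axis) of each tested gene of the adaptor and kinase set and of the 5 pathway lists, filled in rust where the edgeR adjusted p is under 0.05, with a black bar at the median of the list. The medians of the outputs lie at 0.96 (MyD88) and 0.52 (TRIF), that of the 10 adaptor and kinase genes at 0.06 and that of the receptors at −0.10.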

How the data were processed

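RNA of cocultured macrophages was sequenced by the authors as read pairs after a kit that does not mark strand. Their methods name TopHat, and the submitters' processing notes name Bowtie 0.12.2, HTSeq 0.6.1 and the builds mm8 and mm10. The authors deposited whole read counts per gene without normalization, and FPKM values, each of them a count over gene length and column total. The 10 genes were taken from the count table by symbol. The fit used edgeR 4.0.16 (R 4.3.3) with filterByExpr, TMM normalization, condition only, glmQLFit and glmQLFTest, two-sided, with Benjamini-Hochberg adjustment over all 12494 genes tested and a threshold of 0.05. CPM are counts scaled by the TMM library size. Standard errors are the log2 fold change over the square root of F. Alternatives were DESeq2 1.42.0, other scalings and filters (none, or 10 counts in every library), a replicate block, limma 3.58.1 on log2(FPKM + 1) or log2(FPKM + 0.1), and each library left out. The tests were tested on simulated data. Overlaps came from GENCODE M21 and sequences from RefSeq. The member genes and the lists were chosen with earlier results of these data known. The text names all 10 members, up to 4 genes of each list with the smallest adjusted p, Traf3ip2 and the 3 genes most like Irak3. Genes that share exons with a member, marker and Y-linked genes, Tab1, Tab2, Tab3, Tlr4 and Tlr6 were named outside this rule. So were Il6, Ifnb1 and the outputs that were not called. Mx1 was not found by its symbol, and Irg1, an older symbol of Acod1, was counted once as Acod1. Counting error is small for the members, which had at least 1357 counts in each library.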

Additional observations from a re-analysis of the deposited data

How the results depend on the processing

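Of the 10 adaptor and kinase genes, Irak3, Ticam2 and Irak2 kept their call and direction in all 13 alternatives. The count of called members was 3 to 5 when each library was left out and 5 in the main test. Tirap, which was never called, turned sign in 5 alternatives, with log2 fold changes of −0.00089 without composition normalization, −0.00032 with limma on log2(FPKM + 1) with or without a filter, −0.00034 on log2(FPKM + 0.1) and −0.0033 without WT replicate 1. It ranged from −0.0033 to 0.052 with each library left out. Over all genes, 2586 were called in the main test, 1091 with unfiltered limma on log2(FPKM + 1), and 1671 to 2543 with a library left out. The list of receptors had 10 called genes and 5 with that limma setting. The list of ligases and kinases had 8, and 2 with that limma setting, 5 with the replicate block and 3 to 6 with a library left out. Same-numbered libraries of the 2 groups did not deviate together (correlation of their deviations −0.03 over 12494 genes), so the numbers were not taken as pairs. With the replicate block 2406 genes and 5 members were called. In the order of levels, 0 to 4 members changed place with a library left out. No scaling moved the median of all genes by over 0.1 on the log2 scale.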
